A study of Mus musculus with 2 samples.

Results

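The transcripts described here are those that the GENCODE annotation classes as nonsense-mediated decay and that were present in 2 mouse adrenal gland RNA-seq libraries. They were chosen by a level: a value of 1 TPM (a length-corrected measure of a transcript's part in the library) or more in both libraries in the transcript tables that carry estimated counts. This rule took 1672 of 7186 annotated nonsense-mediated decay transcripts (23.3%), out of 141864 entries in those tables and 30595 transcripts of any class at the same level. The members lie in 1392 genes. Because the rule uses the TPM values, the level of the members is a description and not a finding.

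Nonsense-mediated decay is a surveillance pathway that degrades messenger RNAs in which the ribosome meets a stop codon well upstream of an exon junction. The exon junction complex left behind by splicing and the factors UPF1, UPF2 and UPF3 mark such a stop as premature, and the kinase SMG1 and its partner proteins then commit the message to decay. Cells also use the pathway to tune normal genes: many splicing factors include a "poison" exon with a stop codon in part of their own transcripts. The class in the annotation is a prediction from the position of the stop codon, so it does not say that a transcript was degraded in these samples.

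Total RNA was sequenced from the adrenal gland, the organ whose cortex makes steroid hormones and whose medulla makes catecholamines. The 2 libraries form 1 group: female B6CASTF1/J mice, a first-generation cross of C57BL/6J and CAST/EiJ mice, aged 36 days, with 300 ng of RNA per library after reduction of ribosomal RNA. There is no second condition, so the comparisons are between the libraries, between transcripts and between 2 ways of quantifying the same libraries. The labels do not settle whether the libraries come from 1 animal or from 2, so the spread between them (SD, n = 2) may be technical. No p-value is given anywhere. The tables with estimated counts summed to 34946406 estimated counts in replicate 1 and 37598352 in replicate 2. Marker levels are from the gene tables, whose TPM is not on the scale of the tables with estimated counts. The summed level of 5 adrenal cortex markers was 13471 and 13904 TPM, and that of 5 medulla markers 1480 and 1110 TPM. That of 5 skeletal muscle markers was 246 TPM in replicate 1 against 2.02 TPM in replicate 2. The 4 liver markers summed to 29.3 and 1.61 TPM and the 5 brown fat markers to 1483 and 1398 TPM. None of the cortex, muscle, liver or brown fat marker genes carried a member, and the medulla markers carried 2. The part of muscle RNA in the differences between the libraries was not tested.

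The stop codons of 12 members are shown here, since the class is read from the stop codon and its distance to the last exon junction. The lines hold the last 30 bases of the annotated reading frame along the spliced transcript, 5′ to 3′, with the stop codon in capitals. They were chosen because they belong to the genes that the results turn on: SR proteins and other splicing regulators, the most abundant member, and an accessory protein of the adrenal hormone receptor. The letters are GENCODE M21 transcript sequence (mm10) and not sequence of the cross.
Srsf3-201: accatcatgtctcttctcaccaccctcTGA
Srsf6-201: gccatgacgacagcagccttttgccatTAG
Srsf7-203: aggtttcttcgtttgagtcagtcgcctTGA
Srsf4-204: gtaacccggttgtctcatgccccagctTAG
Srsf11-206: gctgaagttcttttccctggttcagccTGA
Tra2a-202: aaaaaattgaacagaagattggtcagaTAG
Tra2b-206: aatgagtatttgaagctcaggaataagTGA
Ptbp1-201: gaggcgtctacggtgatgtgcagcgggTGA
Ptbp2-208: gaggtgtttatggagatgtgcagcgcgTGA
Clk1-210: tcacacgggatgaaattgttgatacttTAG
Ppia-201: caaagacagcagaaaactttcgagctcTGA
Mrap-202: gagaagaagctgaaagccaacaagctgTGA

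The stop codon of Srsf3-201 lies at chr17:29039485-29039487 (plus strand, exon 4 of 7), in an exon of 456 bases that no coding transcript of the gene shares at that point. That of Srsf6-201 lies at chr2:162932964-162932966 (plus strand, exon 3 of 7), in an exon of 268 bases, and a coding transcript of the gene is annotated with the same stop. Srsf7-203 stops at chr17:80205054-80205056 (minus strand, exon 4 of 9), Srsf4-204 at chr4:131884388-131884390 (plus strand, exon 1 of 6) and Srsf11-206 at chr3:158024209-158024211 (minus strand, exon 4 of 9). Tra2a-202 stops at chr6:49252965-49252967 (minus strand, exon 2 of 9) and Tra2b-206 at chr16:22259181-22259183 (minus strand, exon 2 of 10), both in the second exon. The stops of Clk1-210 at chr1:58419713-58419715 (minus strand, exon 4 of 12) and Ppia-201 at chr11:6418241-6418243 (plus strand, exon 3 of 5) fall within coding sequence of another transcript of the gene, that is, these bases are read there in another frame. Mrap-202 stops at chr16:90746644-90746646 (plus strand, exon 2 of 4), in an exon that overlaps no exon of a coding transcript. The stop ends at base 5 of that exon, so that most of the printed run belongs to the exon before.

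Ptbp1-201 and Ptbp2-208 come from paralogous repressors of exon inclusion. Their stops lie at chr10:79862473-79862475 (plus strand, exon 9 of 12) and chr3:119724160-119724162 (minus strand, exon 10 of 13). The printed runs are identical at 25 of 30 bases, both stop in an exon of 93 bases, and both stops lie 361 bases upstream of the last exon junction. The corresponding runs of the paralogs Tra2a-202 and Tra2b-206 were identical at 8 of 30 bases, and those of Srsf3-201 and Srsf7-203 at 10 of 30, without any alignment of one to the other.

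Of the 1672 members, 1671 have an annotated stop codon and 1661 of these (99.4% of them) lie over 50 bases upstream of the last exon junction, which is the criterion the class rests on. The median distance was 360 bases, with quartiles of 190 and 714 bases and a longest distance of 12430 bases. The plot of these distances has its sharp left edge at the 50-base line. Among 17800 coding transcripts at 1 TPM or more in both libraries with an annotated stop, 67 (0.376%) met the same criterion. Of the 10 members at or under 50 bases, 5 have the stop in the last exon or at its border, among them Srrm1-204 (3 bases past the junction by the annotation, a distance of -3) and Clk4-214 (a distance of -11).

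**Figure D1:**
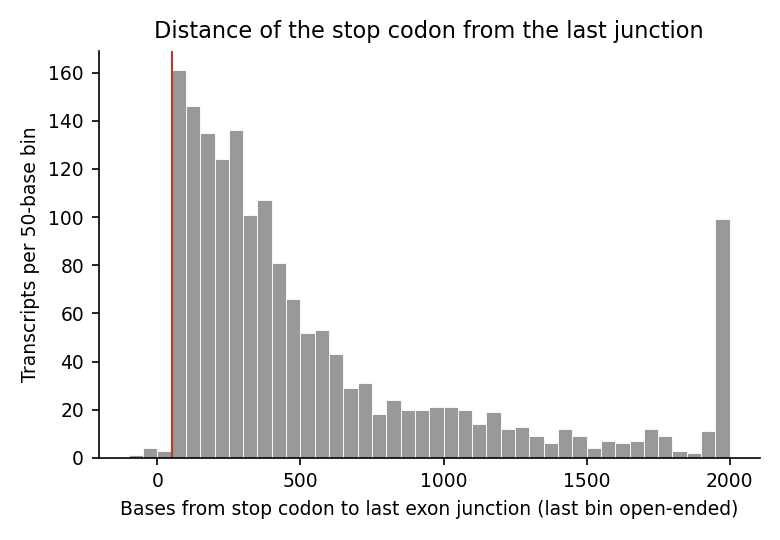
Histogram of the distance in bases from the annotated stop codon to the last exon junction (x axis, 50-base bins, the last bin open-ended) against the number of transcripts (y axis), for the 1671 members with a stop. The red line stands at 50 bases, and 1661 members lie to its right.

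Most of the stops lie in sequence that other transcripts of the gene also hold. In 924 members (55.3%) the stop falls inside coding sequence of a coding transcript, and in 23 in an untranslated region of one. In 354 (21.2%) it lies in an exon that overlaps no exon of a coding transcript of the gene. Transcripts that are not coding, other members among them, may hold the same exon. In 225 it lies in an exon that extends one of the coding transcripts. A further 110 use the same stop as a coding transcript of the gene. TGA closes 956 members (57.2%), TAA 369 (22.1%) and TAG 346 (20.7%), against 50.4%, 26.4% and 23.2% of the coding transcripts. The 1671 stops are 1612 distinct positions, and 113 members share a stop with another member.

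How far a member can be told from its neighbours varied. No exonic base was unique to the transcript within its gene in 902 members, and no exon junction was unique in 309, while 229 had neither. The reading frame of 439 members (26.3%) is annotated without its start. Exons of 400 members overlap another gene, 301 of them on the opposite strand and 128 on the same strand, and 41 are readthrough transcripts that join neighbouring genes. Whether the counting used strand is not given in the sources used here, so values of these overlapping transcripts are uncertain. Many genes of ribosomal proteins, Ppia and Hnrnpa1 also have near-identical processed pseudogenes, which could share reads with them.

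The members were mostly low. Their mean TPM had a median of 3.92, with quartiles of 2.12 and 9.28, and ran from 1.01 to 653 TPM. There were 391 members at 10 TPM or more and 31 at 100 TPM or more, and the top 25 held 26.4% of all member TPM. Together the members summed to 19571 TPM in replicate 1 and 19736 TPM in replicate 2, which is 1.96% and 1.97% of all TPM. Within the genes that carry them they made up 21.2% and 21.3% of the TPM. A median member had 104 and 109 estimated counts, and 274 members had under 20 in at least one library. At the edge of the rule, Tpra1-221 (3.10 and 1.00 TPM), Phc3-208 (1.26 and 1.00 TPM) and Pik3c2a-202 (1.07 and 1.00 TPM) were just inside. Cnot10-204 (1.45 and 0.999 TPM), Itsn1-224 (0.997 and 1.11 TPM) and Safb-210 (1.19 and 0.994 TPM) were just outside.

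Of 3608 detected genes with an annotated nonsense-mediated decay transcript, 1392 (38.6%) carried a member. One member was found in 1168 genes, 2 in 182, 3 in 31 and 4 in 9. The most, 6, were in Rbm39, a splicing coactivator, followed by 5 in Tmem234 and 4 each in Eef1b2, a translation elongation factor subunit, Tardbp, which encodes the RNA-binding protein TDP-43, and Rabggtb, a subunit of a prenyltransferase of Rab proteins. In Rbm39 the highest was Rbm39-222 with 29.5 and 27.9 TPM, 11.95% and 12.1% of the gene, and Rbm39-222, Rbm39-225 and Rbm39-218 are annotated with the same stop codon. In Tardbp the highest was Tardbp-228 with 39.8 and 32.0 TPM, 23.1% and 20.9% of the gene, next to 37.1 and 33.3 TPM of the highest coding transcript. Tardbp-224 differed between the libraries, at 3.40 and 11.4 TPM.

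The share of a member in the summed TPM of its gene had a median of 15.3% (15.8% in replicate 1 and 15.2% in replicate 2, SD 0.404). Computed from estimated counts, which are not divided by length, it was 8.29%. The quartiles were 8.00% and 29.0%. Shares under 5% were found in 227 members, and shares of 25% or more in 508. By the same measure the median was 28.4% over all transcripts at 1 TPM or more in both libraries, 38.6% over protein-coding, 16.4% over processed transcripts and 7.60% over retained introns. These medians depend on how many transcripts of each class are annotated per gene, and no test was made between them.

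**Figure D2:**
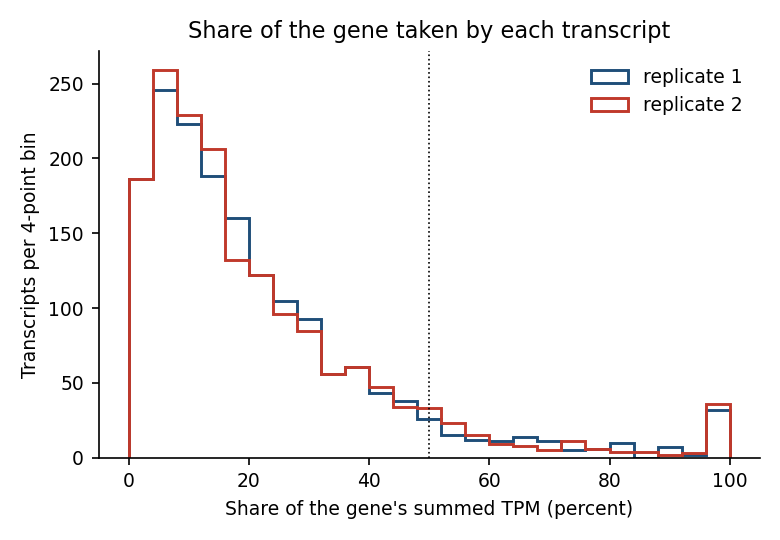
Share of the gene's summed TPM (x axis, percent, 4-point bins) against the number of members (y axis), with a line for each library. Both lines peak under 10% and tail off past the dotted line at 50%, with a small second peak at 96 to 100%; the medians are 15.8% and 15.2%.

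In 238 members (14.2%) the nonsense-mediated decay transcript was the highest of its gene in both libraries, and in 120 (7.18%) it held 50% or more in both. The corresponding values were 39.0% and 29.6% over all transcripts, 14.3% and 8.19% over processed transcripts, and 5.36% and 2.47% over retained introns. Of these 120, 28 are the only transcript of their gene, 24 of which carry a Gm name, so 92 compete with another transcript. Among the 1637 members whose gene has a coding transcript, 284 lay above the highest coding transcript in both libraries. The highest shares in genes with another transcript included Mmaa-202 (94.3% and 95.1%, 17.3 and 16.7 TPM), from a gene of mitochondrial vitamin B12 handling, and Commd2-201 (93.0% and 91.7%, 19.4 and 19.4 TPM). For both, the 2 libraries differed by under 2 points. Usp50-203 stood at 100% in both with 35.3 and 30.4 TPM, but its exons overlap another gene on the same strand and its level in the other tables was 0 and 0.04 TPM. At the low end, Hsp90ab1-206 held 0.0940% and 0.123% of a heat-shock chaperone gene whose coding transcript Hsp90ab1-201 stood at 1013 and 844 TPM. Pebp1-204, Atp5a1-204, Dbi-204 and Eef1b2-203 also held under 0.4% in both libraries.

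The member with the highest level was Ppia-201, from the gene of cyclophilin A, a prolyl isomerase. It had 673 TPM in replicate 1 and 633 TPM in replicate 2, or 49.7% and 47.0% of the gene. The coding transcript Ppia-202 had 328 and 294 TPM, so the order was the same in both libraries. Tkt-205, from the transketolase gene of the pentose phosphate pathway, had 352 and 403 TPM (41.8% and 43.7%), and the coding Tkt-201 had 16.9 and 17.6 TPM. Most of the rest of this gene went to Tkt-209, a processed transcript, with 469 and 498 TPM. Pnpla2-201, from the gene of adipose triglyceride lipase, had 200.01 and 210.0 TPM (45.8% and 44.5%), above the coding Pnpla2-202 with 74.7 and 87.4 TPM. Prdx6-208, from a peroxiredoxin gene, had 198 and 205 TPM, a share of 53.4% ± 0.783 (SD, n = 2). Lgals1-202, from the gene of the sugar-binding protein galectin-1, had 218 and 216 TPM and 91.5% and 89.7% of the gene. Mtch2-203, from a gene of a mitochondrial outer membrane protein, had 140 and 142 TPM and 73.3% and 76.2% of the gene. Abcb1b-203, from a drug efflux pump gene, had 328 TPM in replicate 1 and 227 TPM in replicate 2. It stayed below the coding Abcb1b-201, with 653 and 572 TPM, and its exons overlap another gene on the opposite strand. Over the top 25 members, 15 were the highest transcript of their gene in both libraries and 0 differed 2-fold between them.

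Among SR proteins, which bind exons and recruit the splicing machinery, 8 of 11 detected genes with an annotated nonsense-mediated decay transcript carried a member (72.7%; 8 members, median share 13.9%). Among 36 such genes of other splicing regulators, 28 (77.8%) carried 44 members, with a median share of 7.22%. The value for all detected genes with an annotated transcript of the class is 38.6%, and the lists of ribosomal, mitochondrial and steroid genes described further on were above it as well. A member needs 1 TPM, which a gene of low level can hardly give, and the 38.6% was not matched to the lists by gene level. These lists were chosen with earlier results of the data known, so the counts are descriptions. In 6 of the 8 SR members and 14 of the 44 others the stop lay in an exon that overlaps no coding transcript's exon, against 354 of all 1672.

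Srsf6-201 had 47.2 and 33.1 TPM, 48.3% and 42.6% of its gene, above the coding Srsf6-203 with 29.9 and 29.6 TPM. Srsf6-201 was higher in replicate 1. Srsf3-201 had 19.2 and 19.1 TPM (28.7% and 27.3%) beside 12.8 and 16.05 TPM of the coding Srsf3-202. Tra2a-202 had 10.5 and 8.52 TPM (32.7% and 32.6%), close to the coding Tra2a-201 with 13.3 and 10.03 TPM. Srsf1-204 held 14.3% and 13.1%, Tra2b-206 14.9% and 13.3%, Srsf4-204 9.07% and 9.70%, Srsf11-206 5.78% and 6.47%, and Srsf7-203 4.56% and 2.46%. None of the 8 differed 2-fold between the libraries.

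**Figure D3:**
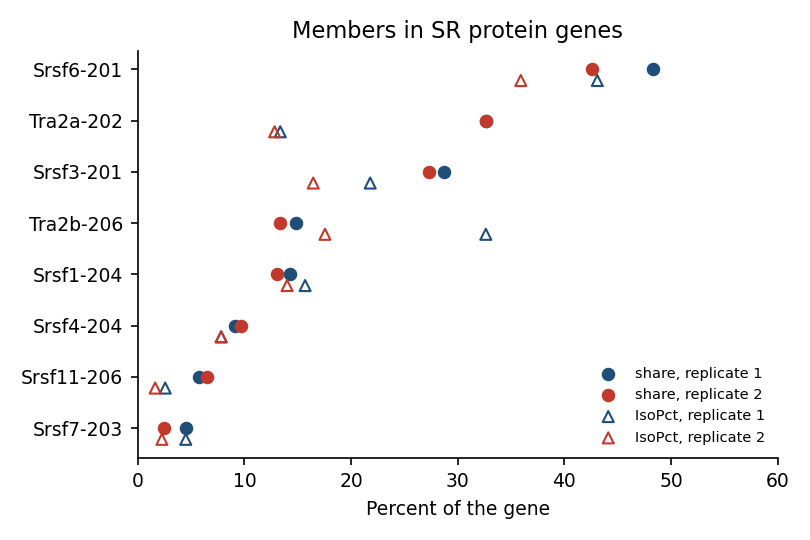
Members in SR protein genes (y axis) by percent of the gene (x axis): filled circles are the share of summed TPM in the tables with estimated counts and open triangles the IsoPct of the other tables, blue for replicate 1 and red for replicate 2. Shares run from 2.46% (Srsf7-203) to 48.3% (Srsf6-201), and the triangles of Tra2a-202 lie far to the left of its circles.

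Among the other regulators, Hnrnpu-206 had 106 and 87.5 TPM and 56.8% and 50.1% of the gene of a nuclear matrix RNA-binding protein. It is annotated as a readthrough transcript, so its value is uncertain. Hnrnpa1-203 had 39.2 and 29.2 TPM (35.4% and 26.9%), under the coding Hnrnpa1-202 with 63.0 and 71.5 TPM. Ptbp1-201 held 9.71% and 9.92% and Ptbp2-208 13.99% and 12.3%. Clk1, a kinase of SR proteins, differed: Clk1-210 had 9.25 TPM in replicate 1 and 4.94 TPM in replicate 2, while the coding Clk1-201 had 11.996 and 39.0 TPM. Its share was 20.4% and 6.63%, the higher value in the library with the lower coding transcript. Clk4-214, from a related kinase gene, went from 1.08 to 7.35 TPM, but its exons overlap another gene on the same strand. Its level in the other transcript tables was 0 TPM in both libraries.

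The decay pathway itself was expressed throughout. All 30 genes of its list were detected in the gene tables, at 3.69 to 42.8 TPM (mean of both libraries) with a median of 9.81 TPM, and 0 differed 2-fold. Upf1, the central helicase, stood at 19.3 and 18.9 TPM and Smg1 at 12.2 and 13.0 TPM. Of the 7 pathway genes with an annotated transcript of the class, 2 carried a member (28.6%, against 38.6% of all such genes). Smg1-204 had 1.54 and 2.78 TPM, and Magohb-202, from an exon junction complex gene, 1.99 and 1.26 TPM. In the other transcript tables neither member reached 1 TPM in both libraries, and 1 of the 2 had an IsoPct of 0 in both.

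In the genes of steroid synthesis and lipid supply, all 5 with an annotated transcript of the class carried members, 6 in all, and their shares were low (median 2.80%). The exception was Mrap-202, from the gene of the accessory protein that brings the ACTH receptor to the cell surface. It had 103 and 86.8 TPM, 24.3% and 22.7% of the gene, beneath the coding Mrap-201 with 303 and 270.1 TPM. Mrap-204 held 3.58% and 4.28%, Lipe-206 2.81% and 2.74%, Fdx1-203 0.747% and 0.652%, and Cyb5a-208 0.411% and 0.465%. Ribosomal protein genes gave 11 members in 11 of 19 genes (57.9%; median share 7.94%), mitochondrial ribosome genes 14 in 12 of 19 (63.2%; median share 16.8%) and respiratory chain genes, whose name pattern also takes in assembly factors, 17 in 14 of 24 (58.3%; median share 26.0%). The median IsoPct of these 3 lists was 5.105%, 29.9% and 15.0%, so it was above the median share in the mitochondrial ribosome. The share was above IsoPct in 5 of 11, 7 of 14 and 12 of 17 members, against 72.2% of all members. Rpl27a-205, at 475 and 492 TPM, held 70.7% and 74.4% of its gene. In the alignment-derived tables it had 11.5 and 18.9 TPM with an IsoPct of 18.1% and 30.3%, and there the coding Rpl27a-203 led with 73.5% and 59.6%. Rpl12-201, at 125 and 139 TPM, held 70.4% and 72.6% and had an IsoPct of 47.6% and 50.4%.

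The 2 libraries gave similar values for most members. The log2 ratio of replicate 2 to replicate 1 (after adding 0.1 TPM) had an SD of 0.60 over the members, against 0.51 over all 30595 transcripts. A difference of 2-fold or more was seen in 152 members (9.09%), 80 higher in replicate 2 and 72 higher in replicate 1. The background over all transcripts was 6.32%. It was 8.45% over retained introns (SD 0.58) and 11.4% over processed transcripts (SD 0.64). The spread was smaller at higher counts, in the members and in all transcripts alike. Among the members the SD was 0.75 among the 263 members under 50 summed estimated counts, 0.68 from 50 to under 200, 0.55 from 200 to under 1000 and 0.31 among the 249 with 1000 or more, of which 3 were 2-fold apart. Over all transcripts in the same classes it was 0.69, 0.64, 0.50 and 0.31. In these classes 15.2%, 12.3%, 6.81% and 1.20% of the members were 2-fold apart, against 13.2%, 10.8%, 5.38% and 1.47% of all transcripts. No test was made of the difference. Over members, the Pearson correlation of log2(TPM + 1) between libraries was 0.94 and the Spearman correlation of the share 0.92. Both are descriptions over 1672 transcripts, which are not independent and whose 2 values share the transcript's length and its reading of shared bases.

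**Figure D4:**
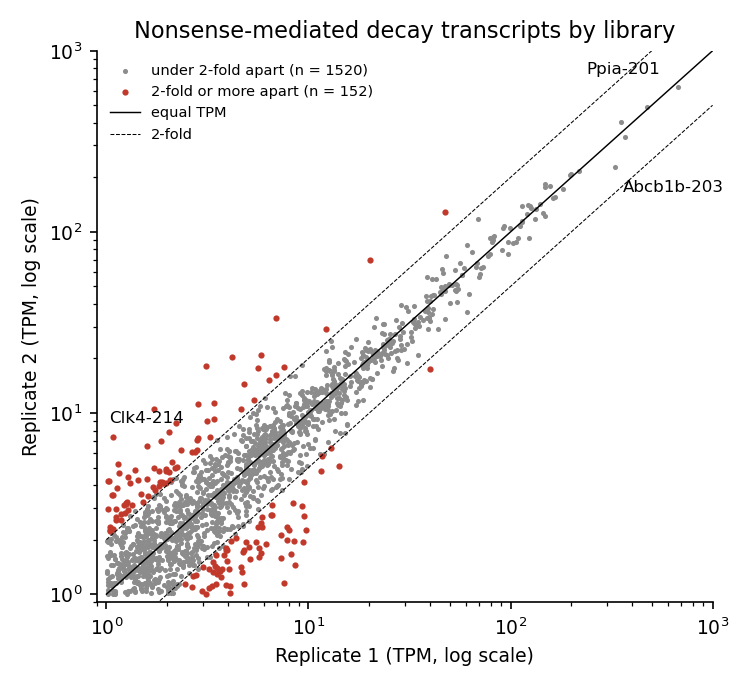
TPM of each member in replicate 1 (x axis) and replicate 2 (y axis), both on log scales, with the line of equality and dashed lines at 2-fold. The 152 red points are 2-fold or more apart and lie mostly at the low end, while the members with high TPM such as Ppia-201 follow the line.

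Of the 152 members, 141 (92.8%) were in genes whose summed TPM differed by under 1.5-fold between the libraries, and 5 in genes that were themselves 2-fold apart. Over all 1392 carrier genes, 97.9% differed by under 1.5-fold and 6 (0.431%) were 2-fold apart. The largest log2 ratios upward were those of Clk4-214 (2.66), Hddc3-210 (2.55) and Il10rb-203 (2.51), which had 3.11 and 18.1 TPM in a gene that changed by 0.09. The largest downward were those of Rrp9-207 (-2.61), Sun1-210 (-2.48) and Eif4a2-204 (-2.24), with 8.19 and 1.66 TPM. Exons of Clk4-214, Hddc3-210 and Il10rb-203 overlap another gene, and Clk4-214 was at 0 TPM in both libraries of the alignment-derived tables. The share moved by a median of 2.64 points between libraries, and by 10 points or more in 164 members (9.81%). Over all transcripts the median was 2.63 points and 12.9% moved by 10 points or more.

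The second set of transcript tables, made from alignments and carrying IsoPct, the percent of a gene's transcripts assigned to each isoform, gave these members less. Of the 1672, 764 (45.7%) reached 1 TPM in both libraries there, against 62.4% of all transcripts, 72.4% of protein-coding ones and 42.0% of retained introns chosen at the same level. Seen the other way, 993 nonsense-mediated decay transcripts reached 1 TPM in both libraries of those tables, and 76.9% of them were members. TPM in the tables with estimated counts was higher for the median of all transcripts by 0.71 on the log2 scale (after adding 1 TPM), so the scales are not the same. Before allowing for this, 885 members (52.9%) were 2-fold or more apart, 859 higher in the tables with estimated counts and 26 lower. The backgrounds over all transcripts were 34.8%, 33.6% and 1.16%. Of retained introns 35.2% were 2-fold or more apart, and of processed transcripts 57.9%. Relative to the median of all transcripts, 485 members (29.0%) were 2-fold apart, 420 higher and 65 lower, with backgrounds of 21.6%, 18.1% and 3.45%. The rule chose members on the tables where they are higher, so this direction is not independent of the choice.

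IsoPct does not depend on the scale. Its median over the members was 7.58% (7.75% and 7.10% in the 2 libraries), beside the median share of 15.3%. The share was above IsoPct in 1207 members (72.2%) and below it in 443 (26.5%), against 16827 of all 30595 transcripts above it and 38.5% below it. It was within 5 points in 666 members. It was 20 points or more above in 218 (13.0%), near the 12.6% of all transcripts, and 20 points or more below in 48 (2.87%, against 6.68%). IsoPct was 0 in both libraries for 176 members (10.5%), against 5.83% of all transcripts, 5.11% of protein-coding, 2.44% of retained introns and 12.3% of processed transcripts. The Spearman correlation of share and IsoPct over members was 0.53, against 0.77 over all transcripts, 0.80 over protein-coding, 0.57 over retained introns and 0.42 over processed transcripts, as a description. Between the libraries within the same tables, the Spearman correlation of IsoPct was 0.87. In both libraries, 238 members led their gene by TPM and 183 by IsoPct, and 114 did so by both. The members that led by both were thus 47.9% of those that led by TPM, against 79.3% over all transcripts, 40.9% over retained introns and 42.1% over processed transcripts. Shares of 50% or more in both libraries by both measures were found in 60 members, 39 of them in genes with another transcript.

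**Figure D5:**
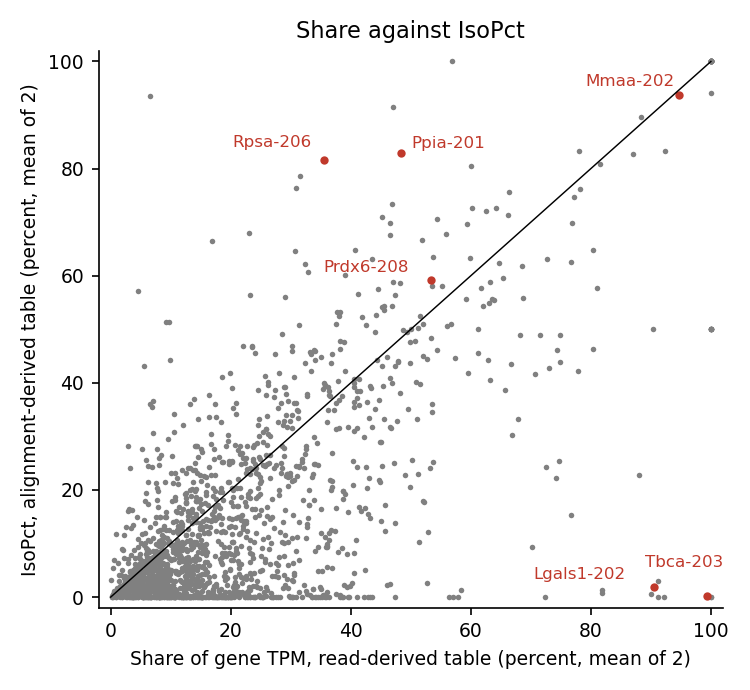
Mean share of gene TPM in the tables with estimated counts (x axis, percent) against mean IsoPct in the alignment-derived tables (y axis, percent), 1 point per member, with the line of equality. More points lie below the line (1207) than above it (443), and Mmaa-202 and Prdx6-208 lie near it while Lgals1-202 and Tbca-203 lie near the bottom right.

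The most abundant members split between these outcomes. Of the top 25, 12 had an IsoPct of 25% or more in both libraries and 9 had an IsoPct under 1% in both. Ppia-201 had an IsoPct of 82.4% and 83.6%, above its share, and Prdx6-208 59.1% and 59.2%, close to it. Pnpla2-201 had 56.1% and 52.1%, and Mmaa-202 93.5% and 94.1%. By contrast Lgals1-202 had 0% and 3.75% where its share was 91.5% and 89.7%, Tbca-203, from a tubulin-folding cofactor gene, 0.27% and 0% where its share was 99.9998% and 98.8%, and Skp1a-204, from a ubiquitin ligase adaptor gene, 0.21% and 0% where its share was 47.9% and 46.7%. Cyc1-202 and Iscu-205 were at 0% in both libraries, while the tables with estimated counts gave Cyc1-202 166 and 156 TPM and Iscu-205 149 and 185 TPM. In the opposite direction, Mrps14-201 held 7.35% and 5.73% by TPM and an IsoPct of 93.9% and 93.1%, and Rpsa-206 35.7% and 35.5% against 82.0% and 81.2%. For Lgals1-202, Tbca-203, Skp1a-204, Mrps14-201 and Rpsa-206 the 2 libraries lay closer together than the 2 kinds of table.

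In the splicing regulators too, the share was above IsoPct in most members, 6 of the 8 SR members and 31 of the 44 others. The backgrounds were 72.2% of all members and 16827 of all 30595 transcripts. In the 44 others the median share of 7.22% stands beside a median IsoPct of 3.84%. In the SR members the medians were close, with a share of 13.9% and an IsoPct of 13.97%. An IsoPct of 0 in both libraries was found in 5 of the 44 others and 0 of the 8 SR members. Hnrnpa2b1-207 held 15.8% and 18.2% of its gene and Luc7l3-204 12.9% and 13.3%, both with an IsoPct of 0 in both libraries. Hnrnph3-204, whose exons overlap another gene on the opposite strand, held 50.1% and 44.5% against an IsoPct of 12.6% and 15.3%. Among the SR members, Srsf6-201 had an IsoPct of 43.1% and 35.9%, Srsf3-201 21.8% and 16.5% and Srsf1-204 15.7% and 14%. Tra2a-202 stood lower, at 13.4% and 12.8%, and Tra2b-206 higher, at 32.6% and 17.6%, with the libraries apart. Clk1-210 had 26.98% and 13.4%, so it was higher in replicate 1 by both measures. Mrap-202 had 7.73% and 8.26%. In the tables with IsoPct, the percent of members at 1 TPM or more in both libraries rose with the members' own summed estimated counts. It went from 15.97% under 50 counts to 35.7%, 53.3% and 79.9% in the classes above, which were not set beside all transcripts. The percent at 1 TPM or more was 50.2% among members with no junction of their own, 48.0% with 1 and 37.7% with 2 or more. Members with the best transcript support level in the annotation, level 1, had a median IsoPct of 12.1% (500 members), and those at level 5 had 6.67% (528 members). It was 9.32% at level 2 (133 members), 3.74% at level 3 (302 members) and 6.645% without a level (209 members), so it did not fall steadily. Members whose stop is shared with a coding transcript had 13.0%, and those with the stop in an exon that overlaps no coding transcript's exon 4.38%. These groupings overlap and were not tested.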

How the data were processed

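The members and gene lists were chosen with earlier results of these data known. Each library came with 2 kinds of transcript table and a gene table. The read-derived tables hold estimated counts and TPM under kallisto-style column names, per the file headers. The alignment-derived transcript tables hold expected counts, TPM and IsoPct (a percent of the gene) under RSEM-style column names, and the gene tables expected counts and TPM, per the file headers. The bounds on TPM that the authors deposited, a signal in TPM, were not used. Per the text deposited beside the tables, the genome was mm10 with GENCODE M21; the sources used here give neither tool versions nor strand use. Because the cross carries alleles that the reference lacks, reads were assigned to a reference of 1 strain, and the effect was not tested.

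Transcripts were read from the tables by field, and all 1672 members matched the alignment-derived tables, the annotation and its transcript sequences by identifier. The share is a transcript's TPM over the summed TPM of its gene, per library, and values are means of 2 libraries with the SD. Ratios between libraries used a pseudocount of 0.1 TPM and those between kinds of table one of 1 TPM, so a log2 ratio understates the change of low transcripts. Stop distances count spliced bases from the stop codon to the last exon junction. With 1 group there is no test, and calls are 2-fold differences. Text names the 25 members highest in TPM, the 10 highest and 5 lowest shares, all members in the pathway, splicing and steroid lists, the extremes between libraries and between tables, the edge of the rule and the genes with most members. Some items that this rule names are not reported here. Calculations used Python 3.11.15, pandas 2.3.3 and numpy 2.4.6 and were tested on simulated data. Library totals were 34946406 and 37598352 estimated counts, and 35684781 and 38701795 expected counts. Estimated counts are shared out among isoforms by a model, so their sampling error is unknown.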

Additional observations from a re-analysis of the deposited data

How the results depend on the processing

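No paired analysis was possible because the 2 libraries form 1 group. With a minimum of 0.5 TPM the median share was 12.6%, the median IsoPct 5.95%, the SD of the log2 ratio between libraries 0.68 and 281 transcripts were 2-fold apart. With a minimum of 2 TPM there were 1108 members, of which 1100 stopped over 50 bases upstream, 53 were 2-fold apart between libraries (SD 0.49) and 117 had an IsoPct of 0, with a median share of 20.2% and a median IsoPct of 9.64%. With 5 TPM there were 631 members and 629 such stops, 14 were 2-fold apart between libraries (SD 0.39), 417 were 2-fold apart between tables, 425 reached 1 TPM in the alignment-derived tables and 70 had an IsoPct of 0, with medians of 25.9% and 14%. With 20 or more estimated counts in both libraries, 80 were 2-fold apart (SD 0.52) and the medians were 16.8% and 9.04%. The share and the spread thus move with the minimum, as fewer low transcripts enter. With 1 library left out, the rule took 2023 to 2069 transcripts, the median share was 13.7% to 14.02%, the median IsoPct 6.04% to 6.46%, and 367 to 377 members had an IsoPct of 0. The spread between libraries has no value there.

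With the gene sum taken over protein-coding and nonsense-mediated decay transcripts only, the median share was 19.3% and 192 members held 50% or more in both libraries. With shares from estimated counts, which do not divide by length, the median was 8.29%. A pseudocount of 1 TPM gave an SD of 0.47 and 85 members 2-fold apart between libraries, and 67 of the 152 had 100 or more summed estimated counts. Chosen after seeing the data, centring on the median of all transcripts left 485 members 2-fold apart between tables. Also chosen afterwards, leaving out readthrough transcripts and those overlapping another gene gave a median share of 14.8%, a median IsoPct of 6.93%, an SD of 0.61, 74 members at 50% or more and 153 that led their gene. Of 89 values under 16 alternatives, 47 stayed within the spread between libraries or within 1.5 times the count.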
